A study of Capra hircus with 12 samples.

Results

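Collagens are triple helices of 3 polypeptide chains, which are encoded by a family of genes. Fibrillar collagens (types I, II, III, V, XI, XXIV and XXVII) form the banded fibrils that carry tension, and FACIT collagens (fibril-associated collagens with interrupted triple helices) sit on the surface of those fibrils. Network collagens build sheets such as basement membrane, transmembrane collagens are anchored in the cell membrane, and type VI collagen forms beaded filaments around cells. The cartilage of the temporomandibular joint (TMJ) condyle has a fibrous superficial layer over deeper cartilage, and the balance of type I against type II collagen is a classical mark of fibrous against hyaline matrix.

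The genes described here are the 44 of 28910 rows in goat count tables whose symbol is COL, a type number, the letter A and a chain number. They comprised 11 fibrillar, 10 FACIT, 9 network, 4 transmembrane and 5 type VI (beaded filament) chains, 1 anchoring fibril chain, 2 multiplexin chains (basement membrane zone collagens) and 2 others. In each layer a gene was tested where at least 3 of the 6 libraries held at least 10 counts, which kept 28 of the 44 in the superficial layer and 29 in the middle layer, 27 of them in both layers.

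RNA-seq was done on Capra hircus TMJ cells called SLC (superficial layer) and MLC (middle layer), taken from young female goats from abattoirs and passaged in culture. In each layer, cells received IL-1β, an inflammatory cytokine, for an hour, or were first given an adenovirus carrying LOXL2 (lysyl oxidase-like 2, a collagen crosslinking enzyme) overnight and then IL-1β, with 3 libraries for each of the 4 combinations. All 12 libraries therefore came from IL-1β-treated cells, cells without IL-1β were not analysed here, and whether the IL-1β groups carried an empty virus was not stated for these libraries. Nothing said that replicates came from separate animals or cultures, so p-values measure only the spread between these samples, which may be technical.

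Library totals ranged from 14158607 to 28931652 counts. The first SLC IL-1β + LOXL2 replicate stood apart from the other two of its group, with a chi-square per degree of freedom of 169 and 62 in its pairs against 31 for the pair without it and at most 9.93 in any pair within the IL-1β groups. The first MLC IL-1β + LOXL2 replicate also differed from its group, at 16.2 and 36. The goat LOXL2 gene itself was not raised under the LOXL2 label. They were 617, 620 and 636 CPM (counts scaled to a common library size) in SLC with IL-1β and 458, 544 and 557 CPM with LOXL2, and 767, 872 and 815 CPM in MLC with IL-1β against 817, 791 and 746 CPM with LOXL2. The log2 fold change of LOXL2 was -0.27 ± 0.11 (SE, adjusted p = 0.106) in SLC and -0.07 ± 0.09 (adjusted p = 0.602) in MLC. Whether transcripts of the virus would be counted at the goat gene was not tested, so the groups are called here by their labels.

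Collagen chains took a large part of each library. Their summed counts were 9.60 to 9.85% of all gene counts in SLC with IL-1β, 7.15 to 9.70% in the SLC libraries labelled LOXL2, 9.92 to 10.4% in MLC with IL-1β and 9.19 to 10.3% in the MLC libraries labelled LOXL2. These are shares of counts, in which long transcripts weigh more, and not shares of molecules. COL1A1 and COL1A2, the 2 chains of type I collagen, held 59.2 to 61.6% of all collagen counts in SLC with IL-1β and 47.1 to 47.8% in MLC with IL-1β, and these ranges did not overlap. In the libraries labelled LOXL2 they held 63.6 to 66.8% in SLC and 50.3 to 52.8% in MLC, in both layers above every IL-1β library of that layer. Together with COL3A1, COL6A1, COL6A2 and COL6A3 they made up 89.0 to 93.9% of collagen counts in every library.

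**Figure D1:**
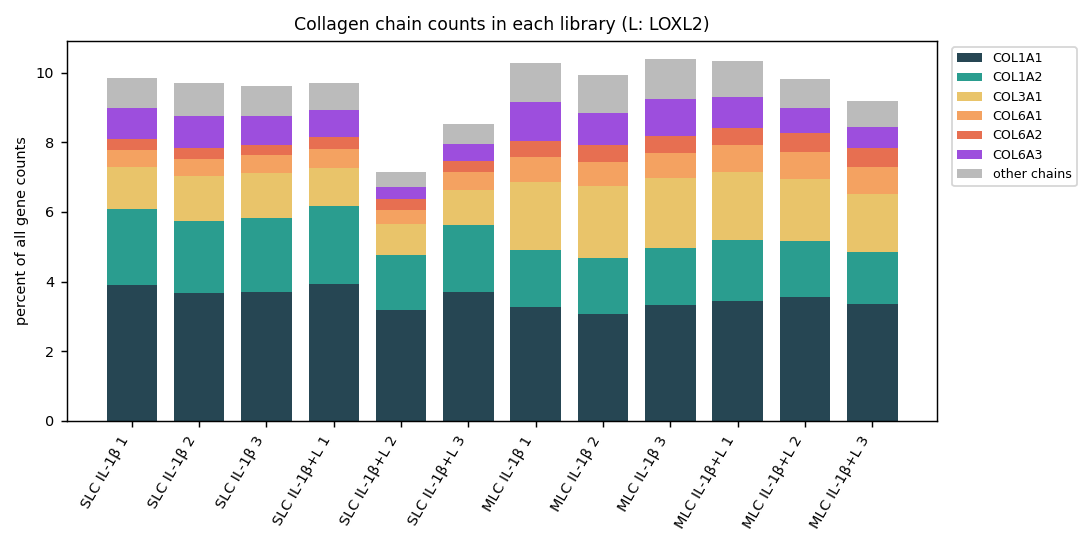
Stacked bars give the percent of all gene counts taken by 6 collagen chain genes and by the other chains in each of the 12 libraries (L: LOXL2). The bars reach between 7.15% and 10.4%, and the COL3A1 segment is larger in every MLC library than in every SLC library.

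The 14 genes below the filter in both layers were the type IV chains COL4A3, COL4A4, COL4A5 and COL4A6, the hypertrophic cartilage chain COL10A1, the FACIT chains COL9A2, COL19A1, COL20A1 and COL22A1, the transmembrane chains COL13A1 and COL25A1, the type VI chains COL6A5 and COL6A6, and COL26A1. Their highest count in any library was 17. COL22A1 and COL6A5 had no count in any of the 12 libraries. COL10A1, which marks hypertrophic chondrocytes, had 0 to 4 counts per library.

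MLC and SLC cells were compared under IL-1β, which asks how the collagen repertoire of the layers differed. Per the study's methods, the superficial layer was peeled off and minced and the deeper layer cut from the bone before further digestion. Layer and these isolation steps cannot be told apart here. The MLC libraries held higher levels of COL2A1, COL9A1, COL11A2 and COL27A1, of COL5A3, COL16A1 and COL12A1 and of all 3 tested type VI chains, and lower levels of all 4 tested network chains, whereas the cartilage chains COL11A1 and COL9A3 did not pass the threshold. Of the 29 tested members, 15 (51.7%) were past the threshold of 0.05 as higher in MLC, where 24% of 14052 genes tested were higher, and 8 (27.6%) were lower, where 22.6% were lower. The share of lower members was thus near that of all genes. The median log2 fold change of the members was 0.26 against -0.01 over all genes tested. COL2A1 and COL9A1 passed the filter through MLC libraries alone, so their difference in these counts was fixed by the filter. Both are among the 15 higher members and in the median. The fits with an MLC library left out drop both genes at the filter, and the median there was 0.13 to 0.18.

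COL2A1, the chain of cartilage type II collagen (chromosome 5, 31857800 to 31888050, ARS1.2), had 0 counts in all 3 SLC IL-1β libraries and 20.8, 10.4 and 18.7 CPM in MLC. At a floor of 3 counts over the group, which allows up to 0.0485 CPM in SLC, MLC was at least 341-fold higher. COL9A1, a chain of the FACIT collagen IX that decorates type II fibrils (chromosome 14, 90925807 to 91014323), had 0 counts in SLC and 11.5, 15.2 and 15.2 CPM in MLC, at least 290-fold higher. The other collagen IX chain tested, COL9A3, was at 1.504, 1.73 and 1.44 CPM in SLC and 1.55, 1.17 and 1.39 CPM in MLC, and the layers overlapped (log2 fold change -0.18 ± 0.26, adjusted p = 0.606).

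The minor fibrillar chains differed unevenly between layers. COL27A1, a fibrillar chain of cartilage, was at 6.69, 9.56 and 6.59 CPM in SLC and 35.1, 25.5 and 36.0 CPM in MLC, 4.24-fold higher (log2 fold change 2.08 ± 0.15, adjusted p = 6.26e-08). COL5A3, a chain of collagen V, was at 38.8, 42.2 and 38.5 CPM in SLC and 142, 160 and 144 CPM in MLC (1.91 ± 0.07, adjusted p = 7.97e-11). Every MLC library was above every SLC library for both genes. COL11A2, a chain of the cartilage collagen XI, rested on far fewer reads and was at 0.467, 1.47 and 0.992 CPM in SLC against 3.87, 3.39 and 4.91 CPM in MLC (adjusted p = 7.22e-05). Its partner COL11A1 was at 1246, 1294 and 1172 CPM in SLC and 1205, 1157 and 1213 CPM in MLC, with overlapping groups and a difference of -0.04 ± 0.06 on the log2 scale (adjusted p = 0.627). COL5A1 was slightly higher in MLC (0.26 ± 0.09, adjusted p = 0.0272) although its groups overlapped. Its call was lost in 4 of 6 fits with a library left out (highest adjusted p = 0.128) and with all 12 libraries in a common fit (adjusted p = 0.413). COL5A2 at 0.13 ± 0.06 (adjusted p = 0.0953) and COL24A1 at 0.14 ± 0.19 (adjusted p = 0.593) did not pass the threshold.

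Among the chains of the major fibrils, COL1A2 and COL3A1 differed in opposite directions. COL1A2 was at 21203, 20565 and 20737 CPM in SLC and 16435, 16125 and 16438 CPM in MLC (log2 fold change -0.34 ± 0.07, adjusted p = 0.00113). COL1A1 was lower in each MLC library than in each SLC library, at 32524, 30510 and 32975 against 37854, 35975 and 36272 CPM, but did not pass the threshold (-0.18 ± 0.08, adjusted p = 0.0598). COL3A1, the chain of the type III collagen of extensible connective tissue, was higher in MLC at 19251, 20594 and 19826 against 11750, 12572 and 12606 CPM (0.71 ± 0.07, adjusted p = 1.99e-06). The ratio of COL3A1 to COL1A1 counts was 0.336 ± 0.022 (SD, n = 3) in SLC and 0.623 ± 0.0455 in MLC with IL-1β, and no MLC library reached down to the SLC values.

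Among the FACIT chains, COL12A1, which links type I fibrils to their surroundings in tissues under load, was at 1711, 2040 and 1648 CPM in SLC and 4388, 4065 and 4392 CPM in MLC (1.26 ± 0.08, adjusted p = 1.92e-08). COL14A1, another FACIT chain of dense connective tissue, was lower in MLC, at 408, 503 and 442 against 722, 726 and 681 CPM (-0.64 ± 0.07, adjusted p = 7.21e-06). The ratio of COL12A1 to COL14A1 counts was thus 2.53 ± 0.241 in SLC and 9.59 ± 1.36 in MLC. COL16A1 was at 159, 152 and 146 CPM in SLC and 384, 406 and 397 CPM in MLC (1.39 ± 0.06, adjusted p = 2.9e-10). COL21A1 was lower in MLC, at 2.11, 0.716 and 1.59 against 5.34, 4.67 and 5.21 CPM (adjusted p = 6.9e-05), on 30, 11 and 24 counts in the MLC libraries.

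All 4 tested network chains were lower in MLC. COL4A1, a main chain of basement membrane, was at 323, 350 and 314 CPM in SLC and 84.1, 94.97 and 95.96 CPM in MLC, 3.55-fold lower (-1.83 ± 0.07, adjusted p = 1.08e-10). COL4A2, its partner in the same triple helix, was at 204, 223 and 214 CPM in SLC and 83.6, 89.6 and 88.3 CPM in MLC, 2.43-fold lower (-1.28 ± 0.06, adjusted p = 8.53e-10). The genes lie 110 bases apart on chromosome 12, and the ratio of COL4A2 to COL4A1 counts was 0.650 ± 0.0268 in SLC and 0.952 ± 0.0372 in MLC, so these partners differed by unequal amounts. COL8A1 and COL8A2, the chains of the sheet-forming collagen VIII, were lower by -0.72 ± 0.09 (adjusted p = 1.33e-05) and -0.87 ± 0.08 (adjusted p = 7.13e-07) on the log2 scale.

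**Figure D2:**
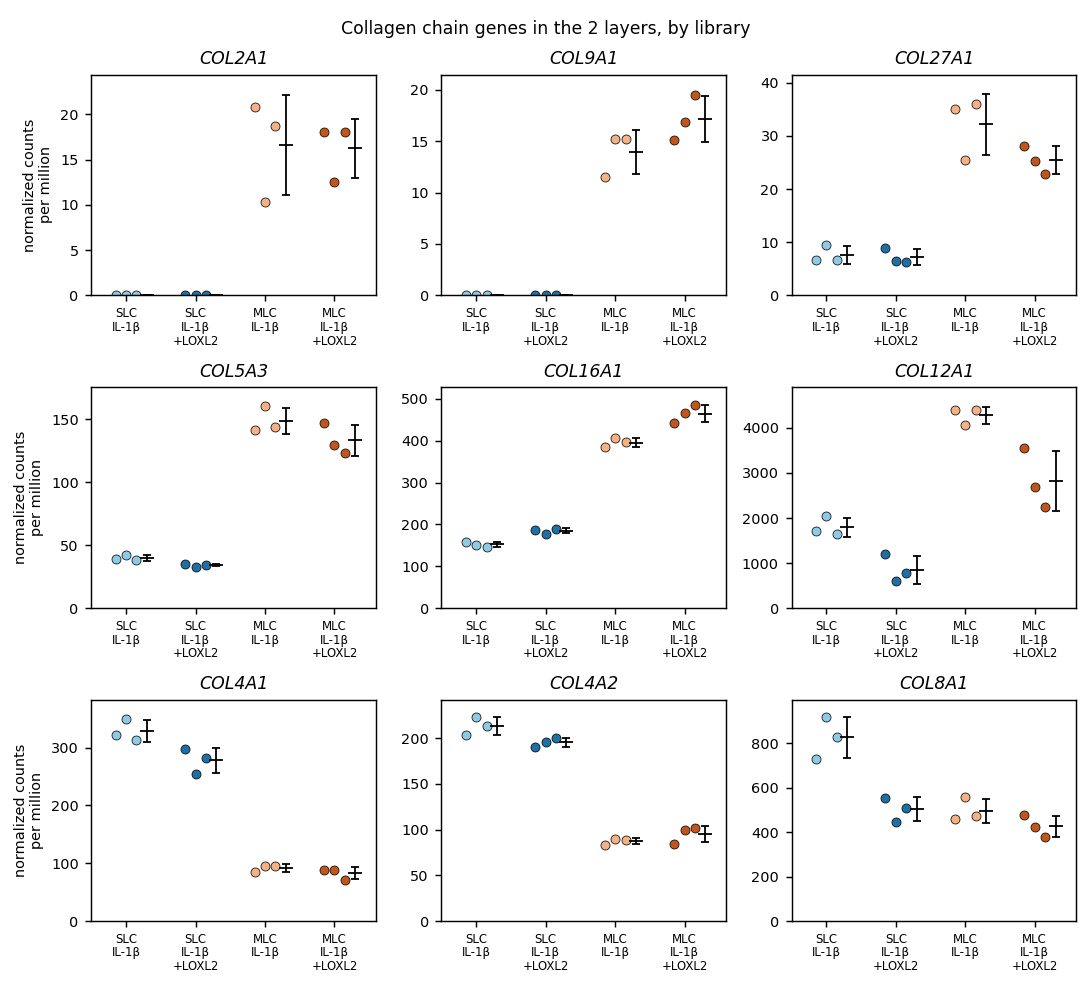
Points are TMM-normalized CPM in each of the 12 libraries for 9 collagen chain genes, and bars are the mean ± SD of 3 libraries in each group, on linear axes from 0. COL2A1 and COL9A1 are at or near 0 in all 6 SLC libraries, and COL4A1 and COL4A2 are lower in every MLC library than in every SLC library.

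All 3 tested type VI chains were higher in MLC. COL6A1 was at 4822, 4887 and 5031 CPM in SLC and 7160, 7069 and 7198 CPM in MLC (0.55 ± 0.06, adjusted p = 6.91e-06), and COL6A2 differed by 0.70 ± 0.06 (adjusted p = 5.22e-07). COL6A3, the largest chain of the assembly, differed by 0.28 ± 0.08 (adjusted p = 0.013), a call lost in 3 of 6 fits with a library left out (highest adjusted p = 0.0857) and with all 12 libraries in a common fit (adjusted p = 0.382). Of the remaining chains, COL7A1 of the anchoring fibrils at 1.11 ± 0.10 (adjusted p = 4.77e-07), the transmembrane COL23A1 at 1.61 ± 0.19 (adjusted p = 8.83e-06) and the multiplexin COL15A1 at 0.38 ± 0.07 (adjusted p = 0.000552) were higher in MLC, COL15A1 no longer so with all 12 libraries in a common fit (adjusted p = 0.201). The multiplexin COL18A1, whose end fragment is endostatin, was lower, at 1.48, 1.56 and 1.73 against 3.79, 3.96 and 3.42 CPM (-1.21 ± 0.20, adjusted p = 0.000223). The transmembrane COL17A1 was at 6.38 ± 0.468 CPM in SLC and 5.84 ± 0.361 CPM in MLC and did not pass the threshold (adjusted p = 0.533).

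Summed levels of several cell type marker lists differed between the layers, not always as the names of the layers would have it. Over the 9 of 10 chondrocyte markers in the tables, which include COL2A1, summed levels were 166 to 170 CPM in SLC and 636 to 751 CPM in MLC with IL-1β. ACAN, the main cartilage proteoglycan, was at 45.4 to 50.3 CPM in SLC and 349 to 435 CPM in MLC, SOX9 at 19.7 to 22.2 and 77.4 to 92.8 CPM, and MATN1 had no count in any library. Markers of the superficial fibrous layer (5 genes) summed to 1303 to 1399 CPM in SLC and 1263 to 1273 CPM in MLC. Singly, 3 of these 5 genes were past the threshold as lower in MLC and 1 as higher, with a median log2 fold change of -0.59. Over all genes tested 22.6% were lower and 24% higher. PRG4, which encodes the lubricin of the joint surface, was low in both but higher in MLC, at 3.84 to 4.86 CPM in SLC and 5.15 to 7.24 CPM in MLC. Mural and smooth muscle markers (5 genes, mostly ACTA2) were higher in SLC, at 1448 to 1882 against 872 to 979 CPM. Epithelial markers, mostly KRT14, were higher in MLC, at 7.10 to 9.70 against 0.400 to 1.98 CPM. Endothelial markers summed to at most 5.21 CPM, hypertrophic chondrocyte markers to at most 2.39 CPM and the 3 of 4 adipocyte markers in the tables to at most 3.99 CPM in any library. Osteoblast markers summed to 23.0 to 39.8 CPM over all libraries and leukocyte markers to 55.5 to 140 CPM. Under IL-1β, osteoblast sums were 37.6 to 39.8 CPM in SLC and 24.9 to 31.0 CPM in MLC, and leukocyte sums 77.6 to 95.1 and 95.4 to 140 CPM. The low endothelial and hypertrophic sums were also higher in MLC under IL-1β, and the adipocyte sums higher in SLC, without overlap. KRT5 and DMP1 had no count in any library, and PTPRC, the pan-leukocyte gene, reached at most 0.103 CPM. The part of cell type mixture in the layer differences was not tested, and in these bulk libraries fewer cells of a type and less RNA per cell cannot be told apart.

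The layers were also compared among the libraries labelled IL-1β + LOXL2, which asks whether the same chains separated SLC from MLC with LOXL2. No library of this comparison was used in the comparison under IL-1β. Of 30 tested members, 12 (40%) were higher in MLC, where 9.15% of 14111 genes tested were higher, and 2 (6.67%) were lower, COL4A1 and COL4A2, where 6.86% were lower. COL2A1 and COL9A1 again passed the filter through MLC libraries alone and are counted among the 12. The median log2 fold change was 0.38 against -0.03 over all genes. Same-numbered SLC and MLC libraries labelled LOXL2 deviated together, but the second SLC library did so more with the third MLC library, so the numbers need not pair them. With the replicate number as a block, 14 members were higher (14.3% of all genes) and 5 lower (13.2%). The block added COL5A1 (0.64 ± 0.18, adjusted p = 0.0296) and COL6A3 (0.53 ± 0.17, adjusted p = 0.0465) as higher. It added COL14A1 (-0.38 ± 0.12, adjusted p = 0.0438), COL18A1 (-0.93 ± 0.21, adjusted p = 0.0107) and COL21A1 (-1.499 ± 0.30, adjusted p = 0.00667) as lower.

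COL2A1 had 1 count over the 3 SLC libraries labelled LOXL2 and 858 over the MLC libraries, a ratio of 1178 with a 95% counting interval of 211 to 46594. COL9A1 likewise had 1 count against 887, a ratio of 1218 (218 to 48167). These exact binomial intervals cover counting error only. COL5A3 (1.97 ± 0.12, adjusted p = 0.000173), COL27A1 (1.83 ± 0.19, adjusted p = 0.000906), COL12A1 (1.73 ± 0.29, adjusted p = 0.0069), COL23A1 (1.73 ± 0.24, adjusted p = 0.00319), COL16A1 (1.34 ± 0.11, adjusted p = 0.000404) and COL11A2 (1.06 ± 0.22, adjusted p = 0.0168) were higher in MLC. The same held for COL7A1 (0.94 ± 0.12, adjusted p = 0.00231), COL3A1 (0.89 ± 0.13, adjusted p = 0.00395), COL6A2 (0.75 ± 0.12, adjusted p = 0.00598) and COL6A1 (0.64 ± 0.13, adjusted p = 0.0134). With a library left out, the call of COL6A1 was lost in 4 of 6 fits (highest adjusted p = 0.0886), that of COL11A2 in 3 (0.0954) and that of COL6A2 in 1 (0.0519).

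The basement membrane pair stayed lower in MLC with LOXL2. COL4A1 was at 298, 255 and 282 CPM in SLC and 88.6, 89.0 and 71.0 CPM in MLC (-1.74 ± 0.14, adjusted p = 0.000424), and COL4A2 at 191, 196 and 200 against 84.8, 99.2 and 101 CPM (-1.03 ± 0.12, adjusted p = 0.00131). COL8A1 (-0.23 ± 0.14, adjusted p = 0.33) and COL8A2 (-0.47 ± 0.21, adjusted p = 0.193) did not pass here, and neither did COL1A1 (-0.04 ± 0.13, adjusted p = 0.863), COL1A2 (-0.23 ± 0.15, adjusted p = 0.356) or COL9A3 (-0.76 ± 0.38, adjusted p = 0.236). A call in the first layer comparison and none in the second does not show that the layer difference changed, which the interaction tested.

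Within SLC, the libraries labelled LOXL2 were compared with those given IL-1β alone, to ask how LOXL2 altered collagen expression in superficial cells. None of the 28 tested members passed the threshold with edgeR's quasi-likelihood test, where 0% of 14164 genes did, and the lowest adjusted p of a member was 0.0706. Before adjustment, 8 members (2 higher and 6 lower) and 6119 genes in all had p under 0.05. DESeq2 called 1 member higher (COL16A1, 15.9% of all genes) and 6 lower (COL3A1, COL5A1, COL6A3, COL8A1, COL12A1 and COL14A1, 14% of all genes). With all 12 libraries in a common fit, 2 were higher (22.8% of all genes) and 7 lower (19.3%). Without the first LOXL2-labelled replicate, 3 members were higher (10.7%, against 31.5% of all genes), namely COL11A2, COL16A1 and COL18A1, and 14 lower (50%, against 31.2%).

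The FACIT chain COL12A1 had the largest difference of the members in SLC. It was at 1711, 2040 and 1648 CPM with IL-1β and 1194, 593 and 776 CPM in the libraries labelled LOXL2, with no overlap (-1.08 ± 0.26, adjusted p = 0.0706). COL8A1 was at 731, 917 and 830 CPM and 555, 446 and 510 CPM (-0.72 ± 0.14, adjusted p = 0.0706), and COL14A1 at 722, 726 and 681 CPM and 562, 479 and 518 CPM (-0.45 ± 0.11, adjusted p = 0.0706). With the trend of level with genomic span removed in each library, COL14A1 was at -0.02 ± 0.10 (adjusted p = 0.89) and COL8A1 at -0.31 ± 0.11 (adjusted p = 0.0915). COL5A1, which starts fibrils and sets their diameter, was at 883, 1085 and 853 CPM against 773, 382 and 584 CPM (-0.70 ± 0.25, adjusted p = 0.0843). COL6A3 was at 8617, 9004 and 7944 CPM against 7384, 3757 and 4750 CPM (-0.69 ± 0.25, adjusted p = 0.0845). In COL12A1, COL5A1 and COL6A3 the first LOXL2-labelled replicate lay nearest to the IL-1β libraries, and without it the differences were -1.41 ± 0.15 (adjusted p = 3.76e-05), -0.97 ± 0.17 (adjusted p = 0.000568) and -1.01 ± 0.14 (adjusted p = 0.000134). Without the second LOXL2-labelled replicate, the lowest of its group in all 3 genes, the differences were instead -0.87 (adjusted p = 0.116), -0.47 (adjusted p = 0.124) and -0.49 (adjusted p = 0.149).

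Over the tested members the SLC groups did not overlap for 12 lower genes (42.9%, against 24.2% of all genes) and for 3 higher genes (10.7%, against 24.6%). The first LOXL2-labelled replicate was the nearest to the IL-1β libraries in 11 of those 12. COL16A1 was higher in each LOXL2-labelled library, at 188, 178 and 188 against 159, 152 and 146 CPM (0.27 ± 0.09, adjusted p = 0.0804), and COL11A2 was at 1.69, 2.32 and 1.81 against 0.467, 1.47 and 0.992 CPM (0.97 ± 0.39, adjusted p = 0.0997). COL18A1 was at 3.56, 6.82 and 6.43 against 3.79, 3.96 and 3.42 CPM, with the first LOXL2-labelled replicate inside the IL-1β range (0.59 ± 0.26, adjusted p = 0.123). COL24A1 (-0.66 ± 0.34, adjusted p = 0.173), COL9A3 (0.30 ± 0.32, adjusted p = 0.491) and COL28A1 (0.33 ± 0.57, adjusted p = 0.665) rested on at most 75 counts in an SLC library. The type I chains differed little, COL1A1 by -0.02 ± 0.14 (adjusted p = 0.915) and COL1A2 by -0.11 ± 0.14 (adjusted p = 0.573), and COL3A1 was at 10432, 9276 and 9996 against 11750, 12572 and 12606 CPM without overlap (-0.32 ± 0.13, adjusted p = 0.0981).

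The same question was asked in MLC, where 5 of the 29 tested members passed the threshold. COL12A1, COL6A3, COL5A1 and COL15A1 fell (13.8%), where 11.7% of 13806 genes tested fell, and COL18A1 rose (3.45%), where 9.88% rose. The share of members that fell was near that of all genes. COL12A1 was at 4388, 4065 and 4392 CPM with IL-1β and 3548, 2687 and 2235 CPM in the libraries labelled LOXL2 (-0.61 ± 0.14, adjusted p = 0.0202). COL6A3 was at 10948, 9101 and 10696 CPM and 8931, 7052 and 6205 CPM (-0.48 ± 0.13, adjusted p = 0.0264). In both genes every LOXL2-labelled library was below every IL-1β library, and the first LOXL2-labelled replicate was again the nearest.

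COL5A1 was at 1143, 1014 and 1180 CPM and 980, 862 and 756 CPM (-0.37 ± 0.11, adjusted p = 0.0322). COL15A1, a multiplexin between basement membrane and interstitial collagen, was at 653, 563 and 617 CPM and 550, 477 and 448 CPM (-0.32 ± 0.10, adjusted p = 0.0398). COL18A1, at 1.48, 1.56 and 1.73 CPM with IL-1β and 2.17, 3.77 and 2.72 CPM in the libraries labelled LOXL2, rose 1.78-fold (0.83 ± 0.27, adjusted p = 0.0474) on 21 to 53 counts per library, and with DESeq2 it did not pass (adjusted p = 0.0544). The groups of these genes did not overlap. In all, the MLC groups were apart for 6 lower members (20.7%, against 19.6% of all genes) and 5 higher members (17.2%, against 21.4%), shares close to those of all genes.

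**Figure D3:**
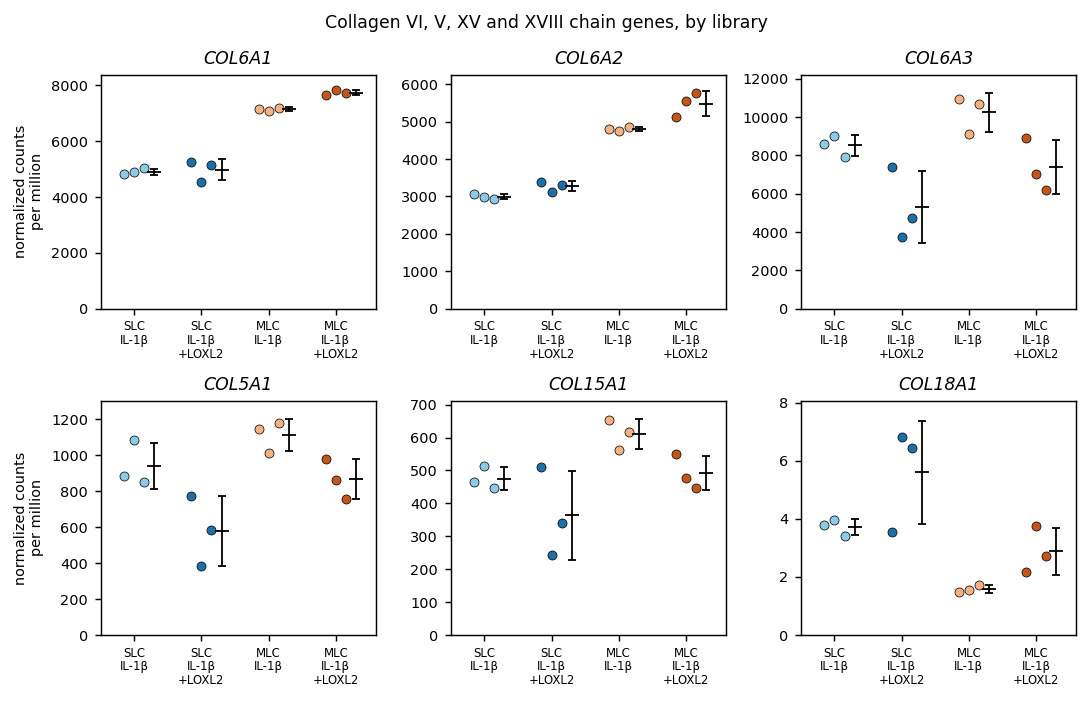
Points are TMM-normalized CPM in each library for 6 collagen chain genes, with bars for the mean ± SD of 3 libraries, on linear axes from 0. COL6A3 is lower in every library labelled LOXL2 than in the IL-1β libraries of its layer, whereas COL6A1 overlaps in SLC and is slightly higher in MLC.

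The MLC calls changed with the libraries kept. No member passed when IL-1β replicate 1 or 3 was left out, without the second LOXL2-labelled replicate, or with all 12 libraries in a common fit, while 3 fell without the second IL-1β replicate and COL12A1 alone fell without the third LOXL2-labelled replicate. The share of all genes called in these fits is not given here, so these counts cannot tell a change in the members from a change over all genes. Without the first LOXL2-labelled replicate, 5 members rose (17.2%, against 23.1% of all genes) and 12 fell (41.4%, against 25.3%), among them COL12A1 (-0.81 ± 0.09, adjusted p = 4.04e-06), COL6A3 (-0.64 ± 0.09, adjusted p = 4.08e-05), COL5A2 (-0.30 ± 0.07, adjusted p = 0.00239) and COL11A1 (-0.37 ± 0.08, adjusted p = 0.000813).

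Other members of MLC did not pass the threshold. COL24A1 was at 2.96, 3.26 and 3.19 CPM with IL-1β and 2.33, 2.06 and 1.36 CPM in the libraries labelled LOXL2 (-0.72 ± 0.25, adjusted p = 0.0556), and COL16A1 at 384, 406 and 397 CPM and 444, 466 and 485 CPM (0.23 ± 0.08, adjusted p = 0.0633), both without overlap. COL27A1 differed by -0.34 ± 0.14 (adjusted p = 0.0898), COL9A1 by 0.29 ± 0.15 (adjusted p = 0.168), COL6A2 by 0.19 ± 0.08 (adjusted p = 0.124) and COL23A1 by 0.18 ± 0.17 (adjusted p = 0.478). COL2A1 was at 20.8, 10.4 and 18.7 CPM and 18.1, 12.5 and 18.1 CPM, overlapping (-0.03 ± 0.22, adjusted p = 0.933), a spread that left room for differences in either direction. COL1A1 (0.12 ± 0.08, adjusted p = 0.294), COL1A2 (0.01 ± 0.09, adjusted p = 0.972), COL3A1 (-0.13 ± 0.09, adjusted p = 0.292) and the network chains COL4A1 (-0.15 ± 0.11, adjusted p = 0.324) and COL4A2 (0.12 ± 0.10, adjusted p = 0.383) had small differences.

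**Figure D4:**
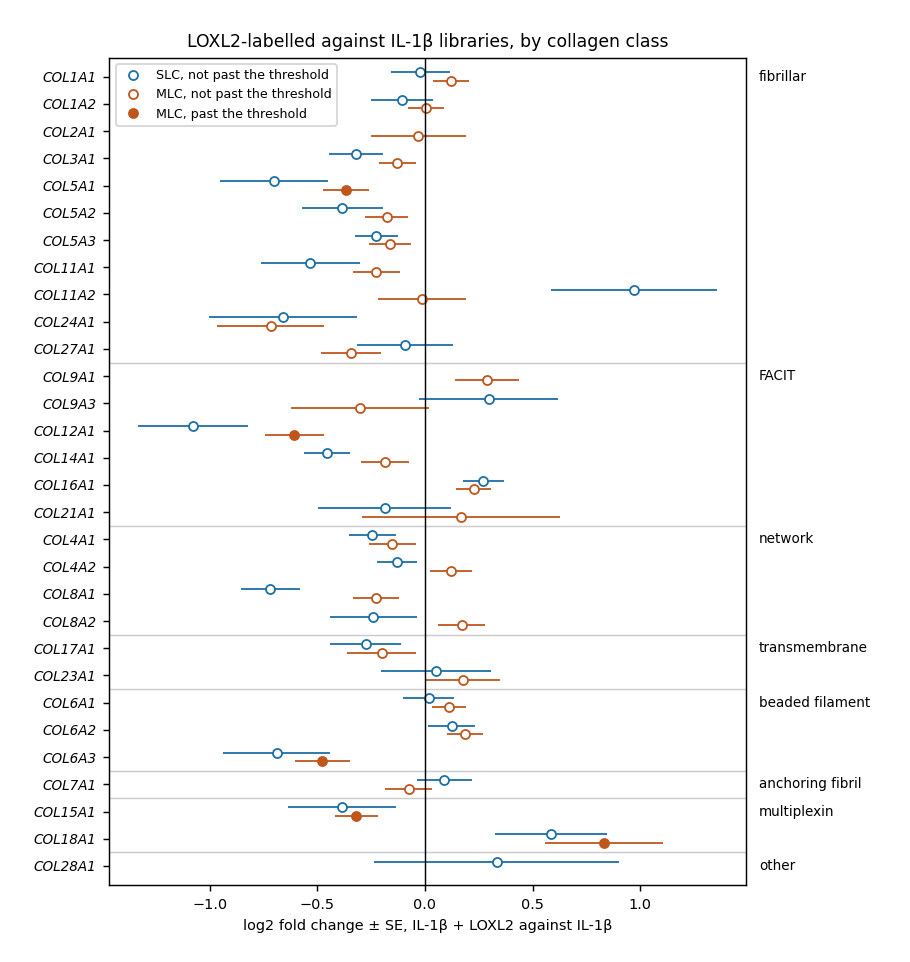
Points are the log2 fold change and bars the standard error of each tested collagen chain gene, libraries labelled IL-1β + LOXL2 against IL-1β, in SLC and MLC, grouped by collagen class. Filled points passed an adjusted p of 0.05, which only 5 MLC points did, and COL12A1, COL6A3 and COL5A1 are below 0 and COL18A1 above 0 in both layers.

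COL6A1, COL6A2 and COL6A3 encode chains of the same collagen VI monomer, and their count ratios were compared without a test. The ratio of COL6A3 to COL6A1 counts was 1.79, 1.84 and 1.58 in SLC with IL-1β and 1.40, 0.827 and 0.922 in the libraries labelled LOXL2. In MLC it was 1.53, 1.29 and 1.49 against 1.17, 0.901 and 0.802. The ratio was lower in each LOXL2-labelled library than in each IL-1β library of its layer, while the ratio of COL6A2 to COL6A1 was 0.610 ± 0.0255 and 0.658 ± 0.0243 in SLC and 0.673 ± 0.00207 and 0.709 ± 0.0383 in MLC. COL6A1 itself differed by 0.02 ± 0.12 (adjusted p = 0.923) in SLC and 0.11 ± 0.08 (adjusted p = 0.321) in MLC. Of the 3 genes, COL6A3 in MLC was the only one past the threshold, and that call was lost in 4 of 6 fits with a library left out.

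In SLC, 19 of 28 members had a negative log2 fold change, with a median of -0.21 against 0.01 over all genes, and in MLC 18 of 29 did, with a median of -0.13 against 0.01, but once the trend with genomic span was removed the medians were 0.01 and 0.06 and 14 and 11 members were negative. With that trend kept, 9 of 10 fibrillar chains were negative in SLC (median -0.27) and 9 of 11 in MLC (median -0.16). Over all genes tested, 6978 of 14164 were negative in SLC and 6778 of 13806 in MLC. The network chains had medians of -0.24 (4 of 4 negative) and -0.02 (2 of 4 negative), and the FACIT chains -0.19 (3 of 5) and -0.01 (3 of 6). Of the 2 transmembrane chains tested, COL17A1 was negative and COL23A1 positive in both layers. Without the span trend, the fibrillar chains COL1A2 and COL27A1 turned positive in SLC. So did COL2A1, COL5A2, COL11A1 and COL11A2 in MLC, while the other negative fibrillar chains stayed negative. The network chains COL4A1 and COL4A2 in SLC and COL4A1 and COL8A1 in MLC also turned positive. The FACIT chains COL21A1 in SLC and COL14A1 in MLC did as well.

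Genomic span moved with the log2 fold changes. Over all genes the log2 fold change fell with the span of the gene, from start to end with introns, at a Spearman correlation of -0.49 in SLC and -0.48 in MLC, and among the members it was -0.39 (n = 28) and -0.27 (n = 29). These are correlations across genes within the same libraries, which are not independent replicates. The tested members had a median span of 93053 bases in SLC and 88517 bases in MLC, against 20754 and 21091 bases for all genes. The 14 SLC members with a span above that median had a median log2 fold change of -0.31 and the others one of -0.06. In MLC the 14 members above it had -0.21 and the other 15 had -0.01.

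Within collagen VI, COL6A3 spans 92249 bases and COL6A1 and COL6A2 span 21131 and 31804 bases. Once the span trend was removed, COL6A3 was at -0.36 ± 0.16 (adjusted p = 0.13) in SLC and -0.23 ± 0.09 (adjusted p = 0.0858) in MLC, and passed the threshold in neither layer. COL6A1 was then at 0.02 and 0.11 and COL6A2 at 0.22 and 0.25, and the difference between these chains was not tested. With the span trend removed in MLC, COL12A1 was the only member that fell (-0.35 ± 0.09, adjusted p = 0.0302), where 6.78% of all genes fell, and 5 rose, where 7.88% rose. Those 5 were COL18A1 (1.09 ± 0.29, adjusted p = 0.0307), COL9A1 (0.55 ± 0.17, adjusted p = 0.0449), COL16A1 (0.42 ± 0.09, adjusted p = 0.0202), COL4A2 (0.42 ± 0.12, adjusted p = 0.0373) and COL6A2 (0.25 ± 0.08, adjusted p = 0.0441). Whether span or another property of long genes accounts for the differences was not tested.

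**Figure D5:**
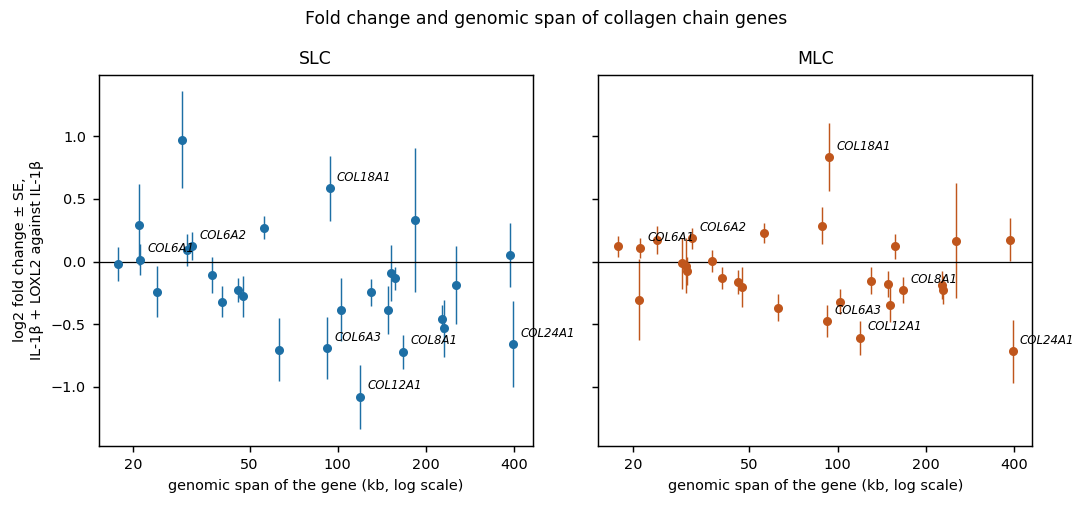
Each point is a tested collagen chain gene, with its genomic span in kilobases on a log axis and its log2 fold change ± SE for libraries labelled LOXL2 against IL-1β on the vertical axis. COL6A1 and COL6A2, with short spans, lie near 0, COL6A3 and COL12A1 below it, and COL18A1 lies above 0 at a span of 93864 bases.

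The layers were set side by side in the LOXL2 comparisons, which share no library. Over the 27 members tested in both, the log2 fold changes had a Pearson correlation of 0.68 and 19 had the same sign, against 0.85 and 11849 of 13524 over all genes. COL5A1, COL12A1, COL17A1 and COL6A3 were lower without overlap in both layers, 4 of the 12 such genes in SLC (33.3%, against 56.8% of such genes over all genes tested) and 4 of the 6 in MLC (66.7%, against 71.9%). COL16A1 and COL6A2 were higher without overlap in both, 2 of 3 (66.7%, against 57.4%) in SLC and 2 of 5 (40%, against 67.6%) in MLC.

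An interaction term over the 12 libraries asked whether the LOXL2 difference depended on the layer. None of 30 members passed with edgeR's quasi-likelihood test, where 0% of 14446 genes did, none passed with DESeq2, and the lowest adjusted p was 0.958. Before adjustment, 327 genes in all had p under 0.05, 2 of them members. These were COL8A1 (0.48 ± 0.18), whose difference was -0.72 in SLC and -0.23 in MLC, and COL11A2 (-0.99 ± 0.42). COL12A1 had an interaction of 0.46 ± 0.31, COL8A2 of 0.40 ± 0.23, COL21A1 of 0.35 ± 0.63 and COL28A1 of 0.82 ± 0.92 on the log2 scale. At the other end were COL9A3 at -0.61 ± 0.46 and COL27A1 at -0.26 ± 0.27, and the values of COL2A1 (-1.69 ± 1.86) and COL9A1 (-1.36 ± 1.11) rested on 1 SLC count each. The median over members was 0.11. At this spread a layer dependence of the size of these standard errors was not detectable.

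Genes that make, secrete, trim, crosslink, bind and degrade collagen were read in the same fits. In MLC against SLC under IL-1β, 14 of 17 tested genes of procollagen modification and folding were higher and 0 lower, where 24% of all genes were higher and 22.6% lower, among them P3H2, a prolyl 3-hydroxylase (2.16 ± 0.13, adjusted p = 8.23e-09), P4HA3, a prolyl 4-hydroxylase subunit (0.78 ± 0.07, adjusted p = 4.89e-07), and P3H4 (0.72 ± 0.08, adjusted p = 2.53e-06). Of the 5 crosslinking oxidases, 4 were higher in MLC, LOXL4 by 1.48 ± 0.26 (adjusted p = 0.000307), LOXL1 by 0.47 ± 0.06 (adjusted p = 3.15e-05), LOXL2 by 0.40 ± 0.06 (adjusted p = 0.000123) and LOXL3, and LOX was lower (-1.13 ± 0.06, adjusted p = 2.56e-09). Of 8 collagen receptors, 2 were higher, the integrin subunits ITGA10 (2.31 ± 0.12, adjusted p = 1.88e-09) and ITGA11 (1.55 ± 0.08, adjusted p = 1.79e-09), and 4 lower, with ITGA2 at -1.23 ± 0.21 (adjusted p = 0.000252).

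Of 12 tested fibril-associated proteins, 8 were higher in MLC and 4 lower, with the glycoprotein TNXB at -2.07 ± 0.50 (adjusted p = 0.00338), the dermal matrix protein DPT at -1.30 ± 0.10 (adjusted p = 7.39e-08) and the proteoglycan DCN at 1.04 ± 0.07 (adjusted p = 4.56e-08). Of 6 collagenases, 2 were higher, MMP1 (3.19 ± 0.22, adjusted p = 3.75e-08) and MMP13 (2.98 ± 0.44, adjusted p = 7.2e-05), and 2 lower. Propeptide processing had 3 higher and 2 lower of 8, and procollagen secretion 3 higher and 1 lower of 10, where 24% of all genes were higher and 22.6% lower. With LOXL2, the counts of higher and lower genes in MLC against SLC were 10 and 0 for modification and folding, 3 and 1 for crosslinking, 2 and 1 for receptors, 6 and 2 for fibril-associated proteins, 1 and 1 for collagenases, 2 and 0 for propeptide processing and 0 and 0 for secretion, where 9.15% of all genes were higher and 6.86% lower.

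In the MLC libraries labelled LOXL2, 3 genes of modification and folding rose, among them PPIB, a proline isomerase of procollagen (0.45 ± 0.10, adjusted p = 0.0202), and P3H3 (0.41 ± 0.11, adjusted p = 0.025), and 1 fell, PLOD2, a lysyl hydroxylase (-0.40 ± 0.13, adjusted p = 0.0492). Of all genes tested there, 9.88% rose and 11.7% fell. In procollagen secretion 4 of 10 genes fell and 0 rose, with the COPII coat genes SEC24A (-0.52 ± 0.14, adjusted p = 0.0273), SEC23A (-0.42 ± 0.12, adjusted p = 0.0321) and SAR1B (-0.41 ± 0.13, adjusted p = 0.0421). The collagen receptors DDR2 (-1.25 ± 0.23, adjusted p = 0.0187) and ITGA1 (-0.49 ± 0.13, adjusted p = 0.0265) fell and no receptor rose. PCOLCE, an enhancer of propeptide cleavage, rose (0.38 ± 0.10, adjusted p = 0.0241) and the protease TLL1 fell (-0.66 ± 0.17, adjusted p = 0.0255). COMP rose (0.37 ± 0.10, adjusted p = 0.0281) and 2 fibril-associated genes fell, with FN1, fibronectin, at -0.54 ± 0.13 (adjusted p = 0.0227). COMP is also on the chondrocyte marker list, where 2 of 7 tested genes fell in MLC and COMP alone rose (median log2 fold change -0.23). In SLC 5 of 6 tested chondrocyte markers had a negative log2 fold change (median -0.26), and none passed the threshold. None of 5 crosslinking oxidases and none of 6 collagenases passed in MLC, no gene of any of these lists passed in SLC, where no gene passed at all, and none passed in the interaction. The summed mural and smooth muscle markers moved with LOXL2 in MLC, from 872 to 979 CPM to 1139 to 1480 CPM. Those of the superficial fibrous layer went from 1263 to 1273 CPM to 1005 to 1218 CPM in MLC and from 1303 to 1399 CPM to 1067 to 1268 CPM in SLC. The single genes of that list did not move together. In SLC, 3 of 5 tested had a positive log2 fold change (median 0.39). In MLC 1 of 3 tested passed the threshold as higher and 1 as lower. In SLC, osteoblast markers summed to 37.6 to 39.8 CPM with IL-1β and 28.1 to 36.0 CPM in the libraries labelled LOXL2, and adipocyte markers to 3.74 to 3.99 and 2.29 to 3.51 CPM. Of the 3 osteoblast markers tested there, 1 had a positive and 2 a negative log2 fold change (median -0.006). All 3 tested adipocyte markers were negative. The summed levels of the other marker lists overlapped between the groups of a layer, and the part of these markers in the LOXL2 differences, those of the collagen chains included, was not tested.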

How the data were processed

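RNA-seq of goat TMJ cells was read from 12 libraries. The authors deposited raw read counts of genes, with a table per layer. Per the labels and the study's methods, mRNA was selected with poly-T beads, paired-end reads were trimmed and mapped to goat ARS1.2 (HISAT2 in the submitters' processing notes) and counted with featureCounts. How strand and multiply mapped reads were handled is not given in the sources used here. The labels name an RNeasy kit and the methods TRIzol.

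Both tables list the same 28910 genes in the same order and were joined by row. Gene positions and spans are from the RefSeq annotation of ARS1.2 and were found for 27105 rows and all 44 members. Transcript lengths and sequences were not used here, so levels are not compared between genes.

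Counts were normalized with TMM and tested with edgeR 4.0.16 in R 4.3.3 (glmQLFit, glmQLFTest) in the 6 libraries of each comparison, or in 12 for the interaction, after a filter of at least 10 counts in 3 of the 6 libraries (for the interaction, in at least 1 layer). P-values were adjusted by Benjamini-Hochberg over all genes tested, and 0.05 was the threshold. Standard errors were obtained as the absolute log2 fold change over the root of the F statistic. Levels are CPM with TMM factors over 12 libraries. Scripts for edgeR and DESeq2 1.42.0 were tested on simulated data.

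Members and gene lists were chosen with earlier results of these data known. Named genes are 16 major chains, all members past the threshold in a LOXL2 comparison or the interaction, the 5 largest increases and decreases of each comparison and, from other lists, at most 3 genes past the threshold with groups that do not overlap, largest first, with LOXL2. COL4A3 to COL4A6, COL22A1 and other untested chains, and the marker genes ACAN, SOX9, PRG4, MATN1, KRT5, DMP1, PTPRC and ACTA2, are named outside this rule, as are members given for their class.

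Same-numbered libraries were checked for shared deviations from their group means. In MLC against SLC with LOXL2 every same-numbered pair correlated (r of 0.754, 0.324 and 0.307), and the block is given beside that result. The second SLC library, however, correlated better with the third MLC library (r of 0.62) than with the second, so the numbers need not pair these libraries. In the other comparisons at least 1 pair was at or below 0.1.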

Additional observations from a re-analysis of the deposited data

How the results depend on the processing

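Besides the settings above, DESeq2 size factors, other filters on low counts, the replicate number as a block, removal of the span trend and each library left out were tried. The count of collagen chains past the threshold in SLC with LOXL2 went from 0 to 7 with DESeq2 and 9 with all 12 libraries, and from 0 to 17 with a library left out, 17 being without the first LOXL2-labelled replicate. In MLC it went from 5 to 0 with all 12 libraries, and from 0 to 17 with a library left out. MLC against SLC gave 19 to 23 calls under IL-1β and 9 to 21 with LOXL2 with a library left out, and 22 with LOXL2 with the block and the span trend removed together. The fits that kept only 2 MLC libraries dropped COL2A1 and COL9A1 at the filter by construction. The interaction gave 0 in each setting. These counts of members are without the share of all genes in each setting. That share also moved, in SLC with LOXL2 from 0% in the main fit to 31.5% higher without the first LOXL2-labelled replicate. The counts alone therefore cannot tell a change in the members from a change over all genes. In comparisons of LOXL2 within a layer and of the layers under IL-1β, where numbers did not pair the libraries, the block gave 0, 7 and 21 calls, and not every library correlated best with its own number. That last point also held between layers with LOXL2. Of the values of single members under settings that kept all libraries, 198 of 224 in SLC with LOXL2, 195 of 232 in MLC with LOXL2, 220 of 232 between layers under IL-1β and 219 of 240 between layers with LOXL2 kept their direction and their side of the threshold. Levels per transcript length were not run.

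Without the span trend, and then with the block as well, log2 fold changes turned positive in SLC for COL1A2 (0.0357 and 0.0339), COL27A1 (0.30 and 0.32), COL21A1 (0.21 and 0.17), COL4A1 (0.16 and 0.15) and COL4A2 (0.30 and 0.28). In MLC they did for COL2A1 (0.0274 and 0.0400), COL5A2 (0.0980 and 0.0975), COL11A1 (0.0599 and 0.0583), COL11A2 (0.0361 and 0.0369), COL14A1 (0.10 and 0.11), COL4A1 (0.12 and 0.12) and COL8A1 (0.0527 and 0.0600), and under IL-1β for COL11A1 between layers (0.0574 and 0.0574). With a library left out, the sign changed in SLC for COL1A1 (-0.0587 to 0.0319), COL27A1 (-0.29 to 0.10), COL23A1 (-0.16 to 0.19), COL6A1 (-0.0301 to 0.0832) and COL28A1 (-0.0917 to 0.73). It changed in MLC for COL1A2 (-0.0513 to 0.0507), COL2A1 (-0.28 to 0.16), COL11A2 (-0.13 to 0.15) and COL21A1 (-0.29 to 0.52), and between layers with LOXL2 for COL24A1 (-0.17 to 0.54) and COL17A1 (-0.16 to 0.0323). The cause was not tested.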
